A study of Mus musculus with 9 samples.

Results

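Expression of 10 genes of the Notch pathway was followed through the 9 RNAseq libraries: the receptors Notch1, Notch2, Notch3 and Notch4, the ligands Jag1, Jag2, Dll1 and Dll4, and the targets Hes1 and Hey1. They were chosen by name, from 43548 gene identifiers in the expression table, and all 10 were present and passed the filter on low values. The lowest value of any of them in any library was 2.85 FPKM, for Dll1. FPKM, a count of fragments scaled by exon length and by the mapped fragments of a library, is a level corrected for gene length and library size.

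The libraries came from the heads of mouse embryos at E14.5, in 3 groups of 3 libraries, and each library combined RNA from 3 of the 9 tissue samples of its group. MCAGF8 embryos carried the transgene Msx2-Cre, which is active in the surface ectoderm of the head and not in the skull mesenchyme, and CAGF8, a ROSA26 allele in which Cre removes a Stop cassette so that the CAG promoter drives an Fgf8b cDNA. Control embryos are labelled wildtype and lacked Cre, but the breeding described (a cross to mice kept homozygous for the allele) would give them the allele with its Stop cassette in place. The strain label is mixed, and the allele was kept on an outbred background. The vault samples of both genotypes, MCAGF8 and control, were tissue left between skin and brain after the skin, where Cre acts, was peeled off. The control cranial base was tissue dissected as cartilage from under the brain of control embryos. The paper describes taking the base from the control embryos after their vault, so both control groups drew on shared embryos. Which samples were combined in which library is not stated, and the main fit treats the groups as independent. Nothing in the labels places the libraries in separate litters, so p-values measure the spread between these combined samples. The comparison of the MCAGF8 vault with the control base differs in both genotype and tissue, which cannot be told apart.

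Notch proteins are cell surface receptors that are cut when a Jagged or Delta-like ligand on a neighboring cell binds them. The released intracellular domain joins the DNA-binding protein RBPJ and Mastermind-like coactivators in the nucleus and turns on genes of the Hes and Hey families, whose products are repressors. In the skeleton the pathway is known for holding progenitors back from maturing into osteoblasts or chondrocytes, JAG1 and NOTCH2 are the genes mutated in human Alagille syndrome, and Dll4 and Notch4 are best known from blood vessels.

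The libraries held 16006 to 17281 genes at 1 FPKM or more, and the FPKM of a library summed to between 793249.1 and 1315981.5. Read totals are not given, so the depth is unknown and the precision of a value is described by the SD of 3 libraries. Correlations of log2 levels within a group were 0.959 to 0.980 in the vault groups and 0.904 to 0.946 in the control base. Control base replicate 2 stood apart, with 9696 FPKM summed over 12 chondrocyte markers against 1030 and 1506 in replicates 1 and 3, 1749 to 2430 in the control vault and 2449 to 4469 in the MCAGF8 vault. Its Col2a1, the main collagen of cartilage, was 2292 FPKM against 163 and 268. Col10a1, the collagen of hypertrophic cartilage, was 74.2 to 658 FPKM in the control base and at most 2.05 in the vault libraries. Summed osteoblast markers, 10 genes, were 4035 to 7269 FPKM in the control vault, 2242 to 2955 in the MCAGF8 vault and 990 to 2389 in the control base. Fgf8 was 13.5, 8.25 and 3.01 FPKM in the control vault and 19.5, 9.43 and 13.03 in the MCAGF8 vault, so the groups overlapped after skin removal (log2 difference 0.83, limma adjusted p = 0.969). Of 18714 genes tested, 113 were called between the vault groups (38.1% of them higher in the MCAGF8 vault), 1571 between the MCAGF8 vault and the control base (35.5% higher), and 573 between the control base and the control vault (60.6% higher). After quantile normalization the latter pair of shares were 58.7% and 37.7%, so the balance of higher and lower calls against the control base depended on the scaling.

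Promoters are shown for Notch2 and Notch3, the members whose 3 MCAGF8 vault values all lay above both control groups. Each window is the 250 bases before the RefSeq transcription start in GRCm38.p6, written 5′ to 3′ on the gene's strand, and capitals mark a match to CACGNG or CNCGTG, letters bound by Hes and Hey repressors. The windows are chr3:98013288-98013537 on the plus strand for Notch2 and chr17:32166891-32167140 on the minus strand for Notch3.
Notch2: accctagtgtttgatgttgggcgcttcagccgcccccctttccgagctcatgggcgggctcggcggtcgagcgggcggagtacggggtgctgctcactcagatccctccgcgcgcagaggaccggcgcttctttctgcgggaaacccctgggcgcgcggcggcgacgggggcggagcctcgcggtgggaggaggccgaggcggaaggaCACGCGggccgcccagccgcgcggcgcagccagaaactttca
Notch3: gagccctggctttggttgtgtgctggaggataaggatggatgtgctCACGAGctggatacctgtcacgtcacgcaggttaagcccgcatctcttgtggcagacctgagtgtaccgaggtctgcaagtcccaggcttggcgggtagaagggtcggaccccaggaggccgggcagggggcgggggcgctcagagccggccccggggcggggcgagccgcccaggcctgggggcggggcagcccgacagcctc
The Notch2 window was 72.0% G and C and held CACGCG starting 42 bases before the start. The Notch3 window was 68.8% G and C and held CACGAG starting 204 bases before it. Among all 32851 RefSeq promoter windows of this length the median was 52.4%, and 23.5% held CACGNG or CNCGTG on either strand, 2 patterns that coincide at CACGTG. Windows were found for 8 of the 10 members, with 2 for Dll1, and 6 of these 9 windows, from 5 members, held a match. The letters TGGGAA or TTCCCA, the core recognized by RBPJ, were in 0 of the 9 windows and in 21.6% of all windows. The difference in base composition was not taken into account.

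In the control vault the levels ran from Hes1 at 52.7 FPKM ± 7.41 (SD, n = 3) down to Dll1 at 4.44 FPKM ± 1.78. The order was Hes1, Notch2, Notch3, Hey1, Jag1, Notch1, Notch4, Jag2, Dll4 and Dll1. Only Hes1 and Notch2, and Notch2 and Notch3, were neighbors in this order whose libraries did not overlap. In the MCAGF8 vault Notch2 headed the order at 47.0 FPKM ± 1.83, followed by Hes1, Notch3, Jag1, Notch1, Hey1, Jag2, Notch4, Dll4 and Dll1. There Jag2 and Notch4, and Notch4 and Dll4, were the neighbors without overlap. In the control base Hes1 was highest again at 49.0 FPKM ± 15.8 and Hey1 stood second at 27.8 FPKM ± 6.51, followed by Notch3, Notch2, Jag1, Notch1, Jag2, Notch4, Dll1 and Dll4. Only Jag2 and Notch4 were neighbors without overlap there. Hey1 was therefore second of 10 in the control base and sixth in the MCAGF8 vault, although its libraries overlapped those of its neighbors in both.

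**Figure D1:**
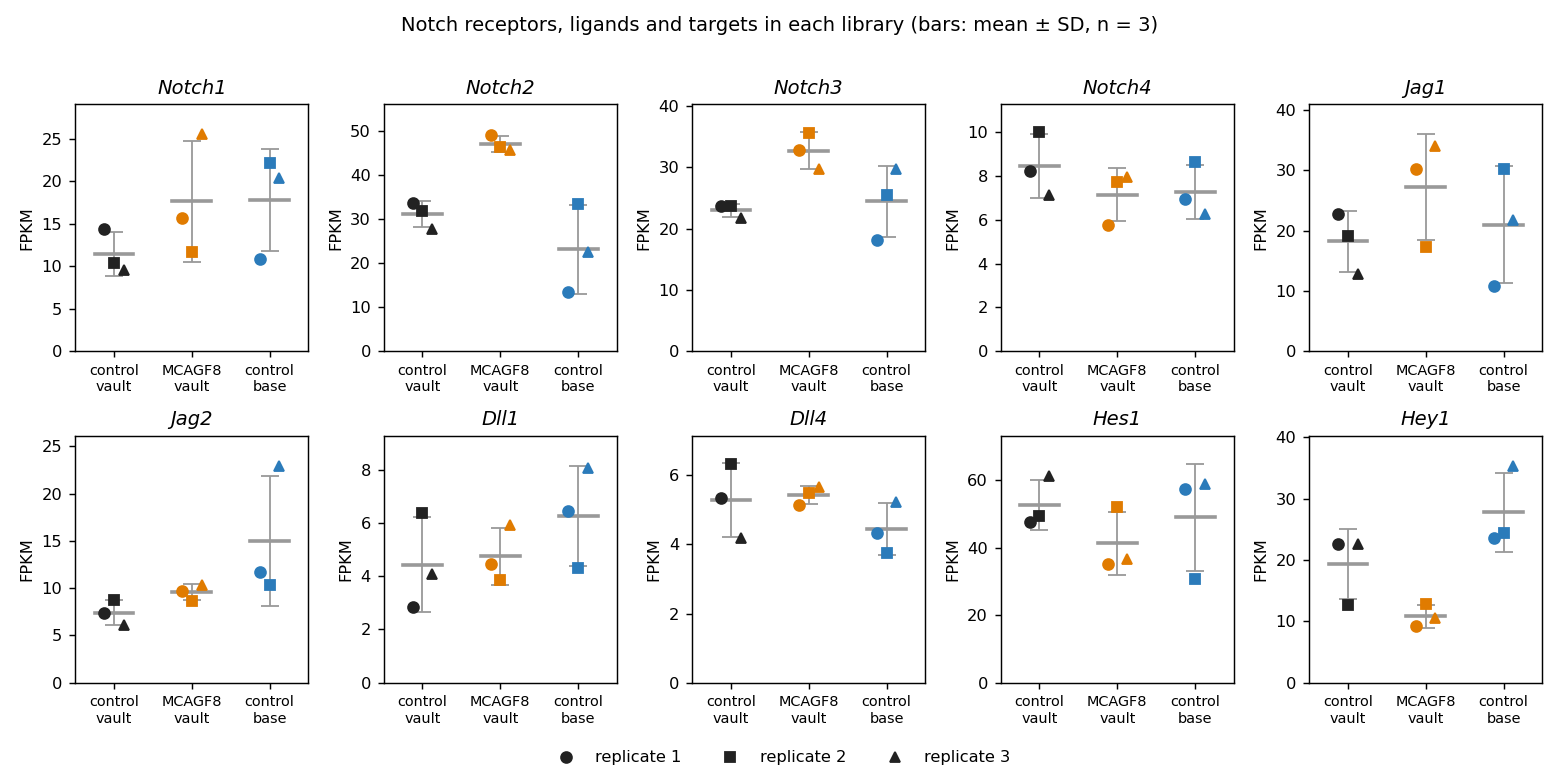
FPKM of each of the 10 genes (vertical axes) in the 3 groups, with 1 point per library, a thick line at the mean and bars of 1 SD (n = 3). Notch2 and Notch3 are above every control library in all 3 MCAGF8 vault libraries, and Hey1 is below every control base library.

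Of the 4 receptors, 3 had higher means in the MCAGF8 vault than in the control vault and 1 had a lower mean. None of the 4 passed the test. Notch2, which with Jag1 is required for normal development of several organs, was 33.7, 31.8 and 27.8 FPKM in the control vault and 49.1, 46.2 and 45.7 FPKM in the MCAGF8 vault. In the control base it was 13.3, 33.4 and 22.5 FPKM. All 3 MCAGF8 vault libraries were thus above all 6 control libraries, and the control base libraries were spread widely. In bulk tissue, a difference in the number of cells that express a gene and a difference in its RNA per cell cannot be told apart. The log2 difference between the vault groups was 0.58 (SE 0.280, 95% interval -0.045 to 1.21, limma adjusted p = 0.851). Fitted to the 6 vault libraries alone, which leaves out the wide spread of the control base, the same difference had an unadjusted limma p of 0.00189 and an adjusted p of 0.125. The adjusted p lay between 0.125 and 1.0 over the 21 alternatives.

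Notch3, a receptor best known from the mural cells of arteries, was 23.6, 23.6 and 21.7 FPKM in the control vault, 32.8, 35.6 and 29.7 FPKM in the MCAGF8 vault and 18.1, 25.5 and 29.6 FPKM in the control base. The MCAGF8 vault was again above every control library, but only narrowly above control base replicate 3. The log2 difference between the vault groups was 0.49 (SE 0.200, 95% interval 0.040 to 0.94), with an unadjusted limma p of 0.0357 and an adjusted p of 0.699. Summed mural cell markers, 9 genes, were 343 to 563 FPKM in the control vault, 289 to 380 in the MCAGF8 vault and 242 to 551 in the control base. The single genes went both ways: of the 8 tested, 4 had log2 differences between the vault groups above 0 and 4 below. Pdgfrb, the PDGF receptor of pericytes, was 49.0, 42.3 and 52.2 FPKM in the control vault and 67.4, 84.0 and 66.9 FPKM in the MCAGF8 vault, while Acta2, smooth muscle actin, was 137, 287 and 200 FPKM and 85.8, 114 and 84.5 FPKM. The part of mural cells in the level of Notch3 was not tested.

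Notch1, the receptor most widely used in development, was 14.4, 10.4 and 9.59 FPKM in the control vault, 15.7, 11.7 and 25.6 FPKM in the MCAGF8 vault and 10.9, 22.2 and 20.4 FPKM in the control base. Its log2 difference between the vault groups was 0.53 (SE 0.338, limma adjusted p = 0.969), and MCAGF8 vault replicate 3 held the highest value of all. Notch4 was the weakest receptor, at 8.23, 10.02 and 7.11 FPKM in the control vault, 5.75, 7.73 and 7.93 FPKM in the MCAGF8 vault and 6.95, 8.62 and 6.24 FPKM in the control base. The 3 groups overlapped, with a log2 difference of -0.22 between the vault groups (SE 0.223, limma adjusted p = 0.969). Summed endothelial markers, 14 genes, were 558 to 654 FPKM in the control vault, 675 to 848 in the MCAGF8 vault and 497 to 566 in the control base. Of the 14, 13 had higher means in the MCAGF8 vault than in the control vault, with 0 called by limma and 4 at an unadjusted p under 0.05, while the means of the endothelial receptor Notch4 lay the other way.

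Added together, the 4 receptors came to 80.0, 75.9 and 66.3 FPKM in the control vault, 103, 101 and 109 FPKM in the MCAGF8 vault and 49.3, 89.8 and 78.7 FPKM in the control base. The MCAGF8 vault sums were close to each other and above every control sum. Notch2 supplied 42.2%, 41.9% and 42.0% of the receptor FPKM in the control vault and 47.5%, 45.7% and 41.9% in the MCAGF8 vault, which overlapped, but 27.1%, 37.2% and 28.5% in the control base, which lay below both. The share of Notch4 was 10.3%, 13.2% and 10.7% in the control vault and 5.56%, 7.63% and 7.28% in the MCAGF8 vault, without overlap. These sums and shares are descriptions of the same values and were not tested.

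**Figure D2:**
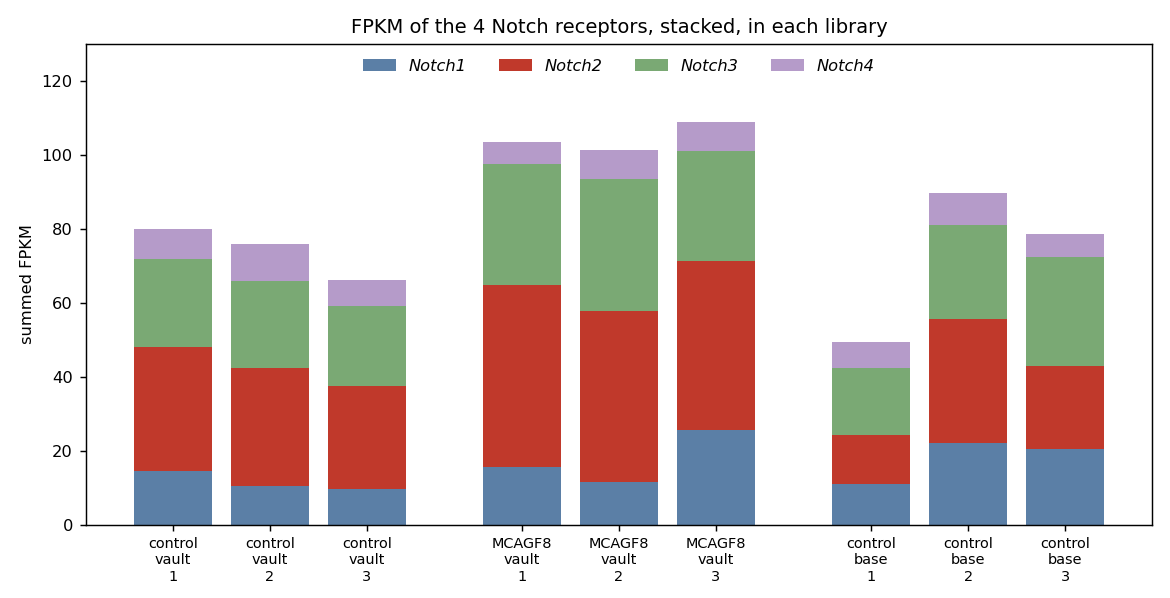
Summed FPKM of Notch1, Notch2, Notch3 and Notch4 (vertical axis), stacked by receptor, in each of the 9 libraries. The 3 MCAGF8 vault libraries reach 101 to 109 FPKM, above the 49.3 to 89.8 FPKM of the control libraries.

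The ligands overlapped between the vault groups. Jag1 was the leading ligand of both vault groups, at 22.7, 19.1 and 12.8 FPKM in the control vault, 30.3, 17.3 and 34.0 FPKM in the MCAGF8 vault and 10.8, 30.2 and 21.8 FPKM in the control base. Its log2 difference between the vault groups was 0.53 (SE 0.387, limma adjusted p = 0.969), and MCAGF8 vault replicate 2 was below 2 of the control vault libraries. Jag2, a ligand of epithelia and muscle, was 7.34, 8.79 and 6.11 FPKM in the control vault, 9.74, 8.67 and 10.4 FPKM in the MCAGF8 vault and 11.7, 10.3 and 22.9 FPKM in the control base. The control base was above the control vault in every library, and its replicate 3 stood far above the rest.

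The Delta-like ligands had the lowest means in every group. Dll1, which acts in somite formation and in neural progenitors, was 2.85, 6.37 and 4.09 FPKM in the control vault, 4.47, 3.85 and 5.91 FPKM in the MCAGF8 vault and 6.46, 4.31 and 8.05 FPKM in the control base. Dll4, the ligand of sprouting vessels, was 5.35, 6.32 and 4.20 FPKM in the control vault, 5.14, 5.49 and 5.65 FPKM in the MCAGF8 vault and 4.33, 3.74 and 5.24 FPKM in the control base. Neither separated the groups, with log2 differences between the vault groups of 0.11 for Dll1 (95% interval -0.57 to 0.80) and 0.045 for Dll4 (95% interval -0.44 to 0.53). Dll4 varied least of the 10 genes over the 9 libraries, and the endothelial marker sums above were higher in all 3 MCAGF8 vault libraries than in any control library.

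The targets had lower means in the MCAGF8 vault than in either control group. Hey1, a repressor that Notch and BMP signaling both induce, was 22.7, 12.7 and 22.6 FPKM in the control vault, 9.19, 12.8 and 10.5 FPKM in the MCAGF8 vault and 23.6, 24.4 and 35.3 FPKM in the control base. Every MCAGF8 vault library was below every control base library, and 1 of them was level with control vault replicate 2. Against the control vault the log2 difference was -0.75 (SE 0.267, 95% interval -1.35 to -0.15), with an unadjusted limma p of 0.0196 and an adjusted p of 0.538. Hes1, a repressor expressed in many progenitor cells, was 47.5, 49.4 and 61.2 FPKM in the control vault, 35.0, 51.9 and 36.7 FPKM in the MCAGF8 vault and 57.2, 30.8 and 58.9 FPKM in the control base. It overlapped in every comparison, with a log2 difference of -0.36 between the vault groups (SE 0.271, limma adjusted p = 0.969), and 1 library of the MCAGF8 vault was high and control base replicate 2 was low. The ratio of Hey1 to Hes1 within a library was 0.477, 0.258 and 0.369 in the control vault, 0.262, 0.247 and 0.285 in the MCAGF8 vault and 0.412, 0.794 and 0.599 in the control base. By this ratio the control base was above the MCAGF8 vault in every library, while the vault groups overlapped.

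Between the MCAGF8 vault and the control vault, the question was how the tissue under the ectoderm that makes Fgf8b differed from normal vault. Of the 10 members, 0 were called at an unadjusted p under 0.05 and an adjusted p under 0.1 in limma, against 0.604% of all genes tested. At an unadjusted p under 0.05 alone there were 2, Notch3 and Hey1, against 6.34% of all genes. A linear model without moderation called 0 of all genes tested, so its 0 calls among the members say nothing about them. The libraries of 2 members did not overlap, Notch2 and Notch3, both higher in the MCAGF8 vault, against 9.9% of all genes in that direction. The log2 differences of 7 members were above 0 and of 3 below, with a median of 0.23 beside -0.009 for all genes. Rescaling each library to a common sum moved the median of all genes by 0.143, and above that median Notch2 and Notch3 differed by 0.62 and 0.52 and Hey1 by -0.72 on the log2 scale.

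Between the MCAGF8 vault and the control base, which the paper used as a baseline for cartilage, 2 of the 10 members were called, against 8.39% of all genes tested. Chondrocyte marker sums of control base replicates 1 and 3, 1030 and 1506 FPKM, were below every vault library, at 1749 to 4469 FPKM. The single markers went both ways: of the 12, 9 had log2 differences above 0 and 3 below. Of these markers Col10a1 and Snorc were called, both lower in the MCAGF8 vault. Snorc was 199, 367 and 150 FPKM in the control base and at most 47.5 FPKM in a vault library. Notch2 was higher in the MCAGF8 vault, with means of 47.0 FPKM ± 1.83 and 23.1 FPKM ± 10.1 and a log2 difference of 1.08 (SE 0.280, 95% interval 0.46 to 1.71, limma adjusted p = 0.0602). Hey1 was lower, with means of 10.8 FPKM ± 1.86 and 27.8 FPKM ± 6.51 and a log2 difference of -1.27 (SE 0.267, 95% interval -1.87 to -0.67, limma adjusted p = 0.0274). Higher calls made up 2.98% of all genes and lower calls 5.41%. Without overlap were Notch2 and Notch3 above the control base, against 8.91% of genes, and Hey1 below it, against 13.0%. For Notch3 the log2 difference was 0.43 (SE 0.200, limma adjusted p = 0.271). The other 7 members had log2 differences between -0.52 for Jag2 and 0.42 for Jag1, and those of Notch1 at -0.023 and Notch4 at -0.025 turned to 0.069 and 0.17 after quantile normalization. They were also above 0 with each library rescaled to a common sum or median, and that of Hes1, -0.21, was 0.003 with a common sum.

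The 2 calls did not stand equally. The call of Notch2 was lost without MCAGF8 vault replicate 1 (log2 difference 1.05, limma adjusted p = 0.202), replicate 2 (1.09, 0.150) or replicate 3 (1.10, 0.144) and without control base replicate 3 (1.11, 0.128). It was also lost in the 6 libraries alone (adjusted p = 0.161), with FPKM rescaled to a common sum (0.120) and without moderation (0.153). The call held without control base replicate 2 (log2 difference 1.39, limma adjusted p = 0.00631), the library rich in cartilage transcripts. In that fit, however, 24.5% of all genes were called, against 8.39% as reported. Without MCAGF8 vault replicate 1, 2 or 3 the share of all genes was 3.13%, 4.09% or 4.51%, and without control base replicate 3 it was 6.22%. It was 4.68% in the 6 libraries alone, 8.45% with a common sum and 4.64% without moderation. Over 21 alternatives the adjusted p of Notch2 lay between 0.00631 and 0.202. Beside the call of Notch2, 14 of 14 endothelial markers were higher in the MCAGF8 vault than in the control base, 5 of them called (Cdh5, Erg, Kdr, Robo4 and Tek), and 7 of 8 macrophage markers were higher, 4 of them called, and the part of these cells in its level was not tested. The call of Hey1 was lost only without MCAGF8 vault replicate 1 (log2 difference -1.17, limma adjusted p = 0.127), and its adjusted p lay between 0.0187 and 0.127. After quantile normalization, which moved the median of all genes by 0.15, Notch2 differed from that median by 1.05 and Hey1 by -1.29.

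**Figure D3:**
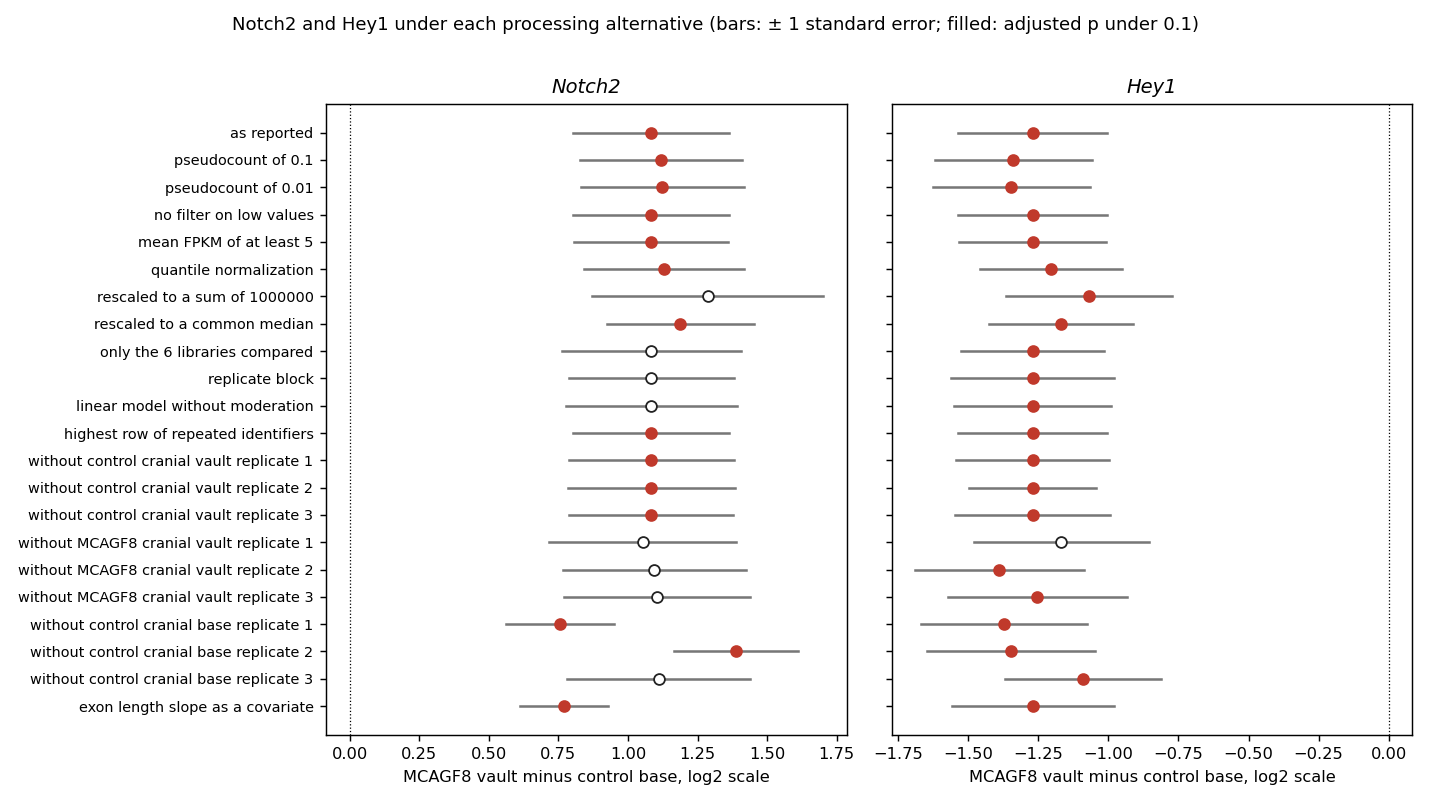
Log2 difference between the MCAGF8 vault and the control base (horizontal axes, bars of 1 standard error) for Notch2 and Hey1, as reported and under each alternative, with filled points for an adjusted p under 0.1. Notch2 is positive throughout, between 0.76 and 1.39, but open in 8 alternatives, and Hey1 is negative throughout, between -1.39 and -1.07, and open in 1.

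The libraries also differed in how levels varied with exon length, and some members followed these differences. The slope of log2 level on exon length, per doubling of length, was -0.213, 0.0964 and -0.0215 in the control base and between -0.0627 and 0.0888 in the vault libraries, over 18568 genes. Notch1 and Jag1 followed the order of these slopes within all 3 groups, as 5.0% of all genes did, and Notch2 within 2 of the 3 groups. With the slope as a covariate, an alternative chosen after seeing the data, Notch2 differed from the control base by 0.77 (limma adjusted p = 0.0279) and from the control vault by 0.42 (adjusted p = 0.432). Hey1 kept -1.27 against the control base (adjusted p = 0.0386), and the difference of Jag1 from the control base turned from 0.42 to -0.070. What the slopes come from was not tested.

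Between the control base and the control vault, which compares the normal tissues, 0 members were called by limma, against 3.06% of all genes. At an unadjusted p under 0.05 there was 1, Jag2, against 12.8%, and a linear model without moderation called 0, against 1.37% of all genes. Jag2 had means of 15.0 FPKM ± 6.88 in the control base and 7.41 FPKM ± 1.34 in the control vault, with a log2 difference of 0.86 (SE 0.289, 95% interval 0.21 to 1.50, limma adjusted p = 0.215). Jag2 and Hey1 were higher in the control base without overlap, against 8.86% of genes, and Hey1 had a log2 difference of 0.52 (limma adjusted p = 0.486). Without control base replicate 2 both Jag2 (log2 difference 1.06, limma adjusted p = 0.0852) and Notch2 (-0.80, 0.0887) were called, but so were 7.17% of all genes. Without control base replicate 3 the difference of Jag2 was 0.53. Over all alternatives their adjusted p lay between 0.0852 and 0.561 and between 0.0887 and 0.856. The remaining differences ran from -0.50 for Notch2 to 0.55 for Notch1, and that of Notch3, 0.057, turned to -0.046 after rescaling to a common median. The members' median was 0.088 beside 0.067 for all genes. These comparisons share libraries with one another, so their values are given side by side and are not independent.

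**Figure D4:**
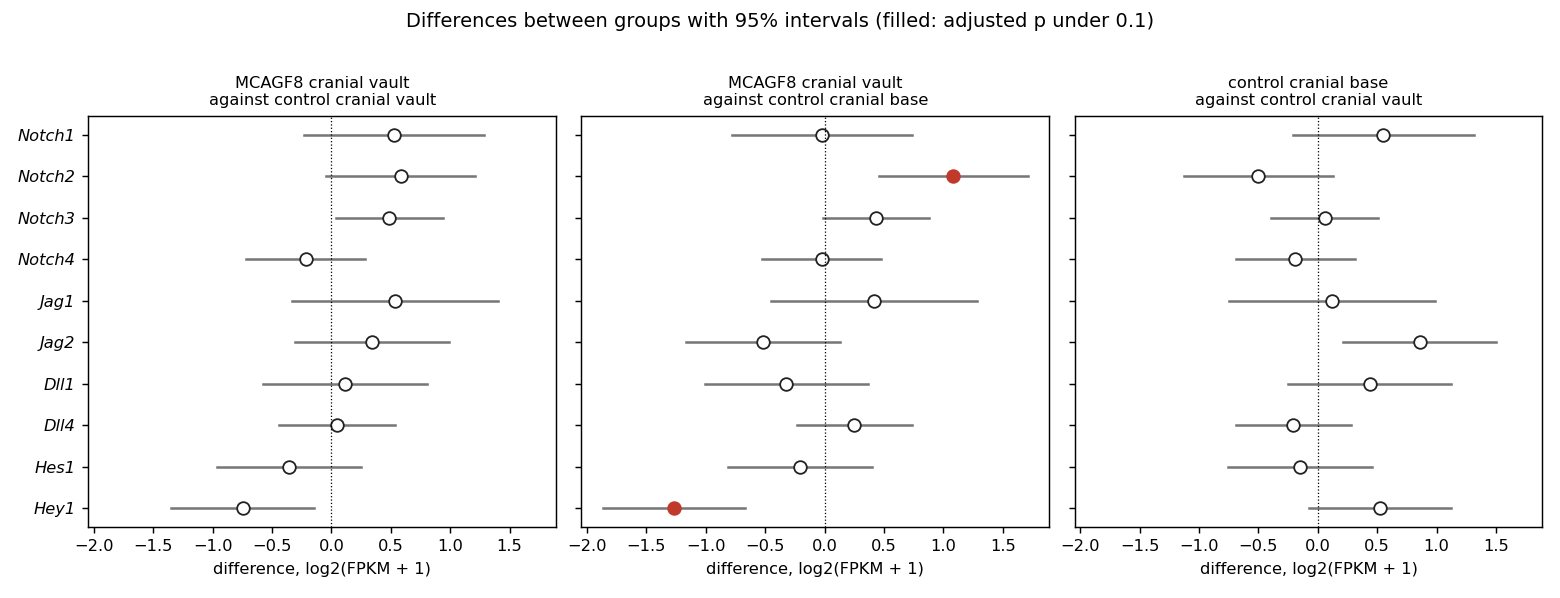
Log2 difference, on the scale log2(FPKM + 1), of each of the 10 genes in the 3 comparisons (horizontal axes), with 95% intervals and filled points for an adjusted p under 0.1. Only Notch2 at 1.08 and Hey1 at -1.27, both between the MCAGF8 vault and the control base, are filled.

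Markers of other cells moved with the groups beside these values. Skeletal muscle markers, 12 genes, summed to 924 to 5793 FPKM in the control vault, 56.7 to 209 in the MCAGF8 vault and 1748 to 11250 in the control base, and 7 of the 12 were called lower in the MCAGF8 vault than in the control vault and 10 lower than in the control base. Osteoblast markers had lower means in the MCAGF8 vault than in the control vault in 10 of 10 genes, 6 of them called. Against the control base 8 of the 10 were lower in the MCAGF8 vault, 4 of them called (Ibsp, Ifitm5, Phospho1 and Spp1). Col1a1, the main collagen of bone, was called higher in the MCAGF8 vault, at means of 2430 FPKM against 714 FPKM in the control base. The sums given above include Col1a1, and those of the MCAGF8 vault and the control base overlapped. Neural progenitor markers, 8 genes of which 6 were tested, summed to 89.7 to 164 FPKM in the control vault, 34.8 to 40.2 in the MCAGF8 vault and 152 to 237 in the control base. Among those tested is Hes5, a Hes family gene that is also counted below with the other Notch pathway genes. In the comparison with the control base, where Hey1 was called lower, 9 of 9 neuronal markers tested were also lower in the MCAGF8 vault, 6 of them called, as were 6 of 6 Schwann cell markers, 4 of them called, and 6 of 6 neural progenitor markers tested, 2 of them called. The part of muscle, bone or neural cells in the level of Hey1 was not tested.

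Epidermal markers, 15 genes, summed to 42.2 to 138 FPKM in the control vault, 438 to 1207 in the MCAGF8 vault and 134 to 787 in the control base, with 14 of 15 higher means in the MCAGF8 vault than in the control vault and 2 called, Krt5 and Pkp1. Jag2 was highest in control base replicate 3, whose epidermal sum was 787 FPKM and whose sum of 9 neuronal markers was 1058 FPKM, against 116 to 207 in the vault libraries. MCAGF8 vault replicate 3 had the highest epidermal sum, 1207 FPKM, with Jag2 at 10.4 FPKM. In control base replicate 2 the epidermal sum was 134 FPKM, with Jag2 at 10.3 FPKM. Schwann cell markers, 6 genes, summed to 23.1 to 32.6 FPKM in the control vault, 11.2 to 21.8 in the MCAGF8 vault and 56.5 to 157 in the control base. Macrophage markers, 8 genes, summed to 273 to 346 FPKM in the control vault, 261 to 410 in the MCAGF8 vault and 128 to 301 in the control base. Erythroid markers, 7 genes, summed to 12560 to 17750, 10350 to 16240 and 5027 to 11050 FPKM and osteoclast markers, 5 genes, to 184 to 312, 126 to 216 and 60.5 to 160 FPKM in the same order. No marker of any list was at 0 in every library, and the part of these cells in the levels of Jag2 and the other members was not tested.

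Of 47 other Notch pathway genes, 45 passed the filter, all but Hes2 and Hes3. Between the vault groups 0 were called by limma, against 0.604% of all genes, and 2 had an unadjusted p under 0.05, against 6.34%. The model without moderation, which called 0 of all genes, called 0 here too. Over the 45 genes the log2 differences were above 0 in 26 and below 0 in 19, with a median of 0.074. Without overlap, 10 were higher in the MCAGF8 vault, against 9.9% of all genes, and 2 lower, against 9.35%. Hes6, a Hes family member that favors neural and muscle differentiation, was 59.9, 60.4 and 74.6 FPKM in the control vault, 29.1, 45.8 and 28.9 FPKM in the MCAGF8 vault and 102, 47.2 and 106 FPKM in the control base. The MCAGF8 vault was below every control library, with log2 differences of -0.92 from the control vault (limma adjusted p = 0.505) and -1.22 from the control base (adjusted p = 0.0620). Hes5, a target best known from neural progenitors, had the next lowest difference between the vault groups, -0.68, at means of 0.853 FPKM ± 0.692 and 1.92 FPKM ± 0.780. At the other end were Rbpjl, an RBPJ relative, with 0.92 at means of 3.18 FPKM ± 1.84 and 1.07 FPKM ± 0.176, and Aph1c, a subunit of the γ-secretase that cuts the receptors, with 0.58 at means of 2.77 FPKM ± 1.01 and 1.46 FPKM ± 0.168. Neither of these 2 was called.

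By role, 6 of the 7 genes of the nuclear complex had higher means in the MCAGF8 vault than in the control vault (median log2 difference 0.30), as did 7 of the 10 proteases that cut the receptor (median 0.16), and 0 of these 17 were called. The 4 ligand-like genes had 3 lower means and a median of -0.16. Among the 5 other genes of the Hes and Hey family, Hes5, Hes6 and Heyl had lower means and Hes7 and Hey2 higher ones. Hey2, a cardiovascular target chosen for mention after its values were seen, was 7.67, 6.13 and 7.08 FPKM in the control vault and 12.5, 9.36 and 8.06 FPKM in the MCAGF8 vault, without overlap and opposite in order to Hey1 (log2 difference 0.45, limma adjusted p = 0.969).

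Against the control base 3 of the 45 genes, or 6.67%, were called, all lower in the MCAGF8 vault. Of all genes 8.39% were called and 5.41% were called lower, so this share lay between those of the background. They were Hes6, Heyl, a target of mural and muscle cells, and Dtx1, a ubiquitin ligase that regulates Notch receptors. Heyl was 8.40, 9.50 and 7.95 FPKM in the MCAGF8 vault, 13.9, 12.8 and 19.3 FPKM in the control base and 9.92, 9.39 and 10.4 FPKM in the control vault, with a log2 difference of -0.75 from the control base (limma adjusted p = 0.0718). Dtx1 was 1.83, 2.17 and 0.761 FPKM in the MCAGF8 vault, 5.96, 4.01 and 8.81 FPKM in the control base and 2.47, 1.35 and 1.59 FPKM in the control vault. The vault groups overlapped and the control base lay above both, with log2 differences of -1.48 for the MCAGF8 vault from the control base (limma adjusted p = 0.0333) and 1.34 for the control base from the control vault (adjusted p = 0.0896), the only call among these genes between the normal tissues, where 3.06% of all genes were called. Two-sided adjusted p-values over the alternatives lay between 0.00384 and 0.220 for Hes6, between 0.0282 and 0.239 for Heyl, and for Dtx1 between 0.0121 and 0.115 against the MCAGF8 vault and between 0.0349 and 0.293 against the control vault. Left out singly, MCAGF8 vault replicates 1 and 3 each ended the calls of Hes6, Heyl and Dtx1 in the MCAGF8 vault, MCAGF8 vault replicate 2 and each control vault library that of Heyl, control base replicate 1 that of Hes6, and control base replicate 3 those of Hes6 and Heyl. The call of Dtx1 between the normal tissues held only without control base replicate 2 among the 9 such fits, where 7.17% of all genes were called.

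The highest log2 differences from the control base among genes not called were those of Rbpjl at 0.75 and Numbl, a Notch inhibitor of the Numb family, at 0.62. Numbl was 65.0, 73.7 and 60.1 FPKM in the MCAGF8 vault, 60.8, 60.9 and 67.2 FPKM in the control vault and 38.0, 36.2 and 56.8 FPKM in the control base, which lay below both vault groups. Between the normal tissues the lowest differences were Hes5 at -0.57 and Numbl at -0.55, and the highest after Dtx1 was Dner, a Delta-like surface protein of neurons, at 0.61. There 24 log2 differences were above 0 and 21 below, with a median of 0.050. For the MCAGF8 vault against the control base, 27 were above 0 and 18 below, and the median was 0.11.

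**Figure D5:**
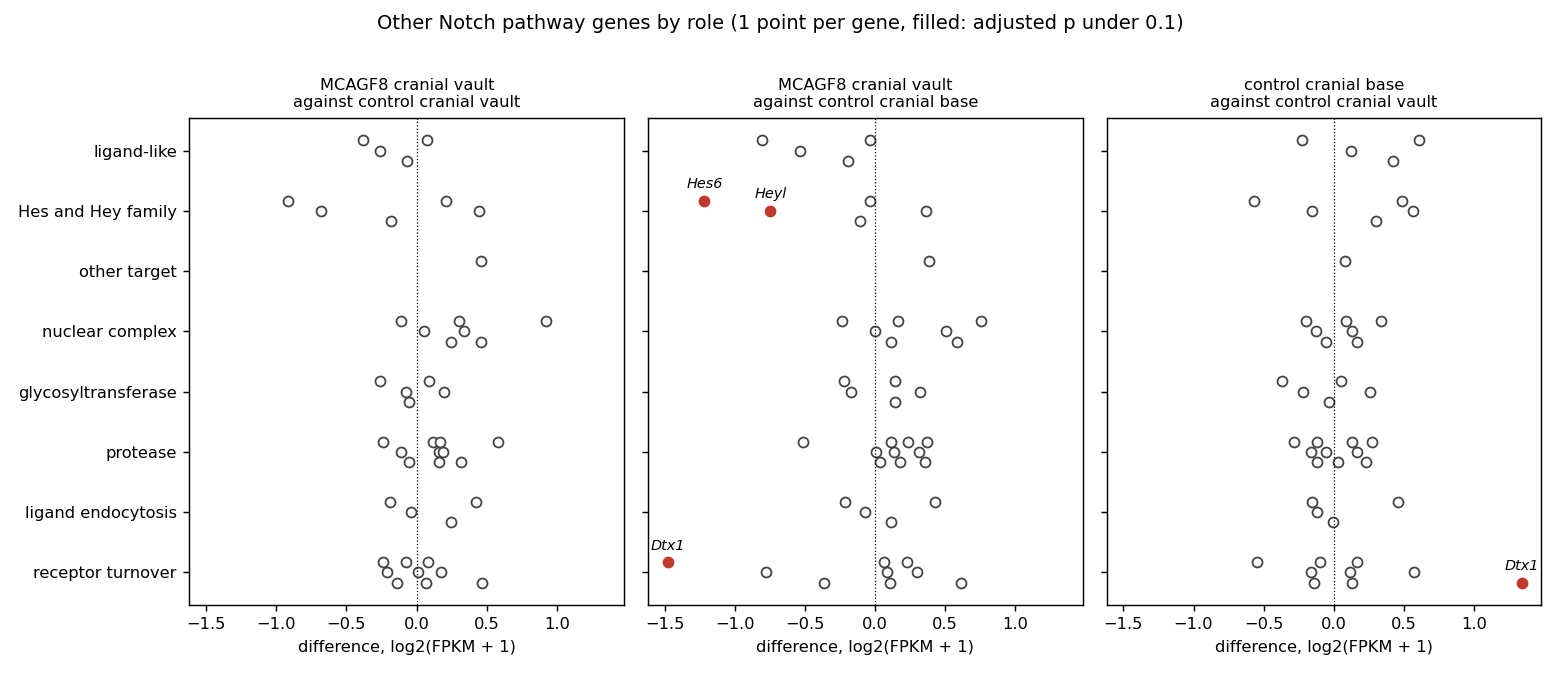
Log2 difference of each of the 45 other Notch pathway genes tested (horizontal axes), 1 point per gene in rows by role, in the 3 comparisons, filled for an adjusted p under 0.1. Filled are Hes6, Heyl and Dtx1 below 0 in the comparison with the control base, and Dtx1 at 1.34 in the control base against the control vault.

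The members that varied most over the 9 libraries on the log2 scale were Hey1, Notch2 and Jag1, with variances of 0.393, 0.327 and 0.289. Genes of similar pattern were sought among 12933 genes with a mean of 5 FPKM or more, by the root mean square difference of centered log2 levels over the 9 libraries. Nearest to Hey1 were Il33, a cytokine, Cadm1, an adhesion molecule, and Cd200, a surface glycoprotein, at 0.177, 0.200 and 0.201. Il33 was 7.07, 3.73 and 7.88 FPKM in the control vault, 3.14, 4.89 and 3.39 FPKM in the MCAGF8 vault and 11.2, 10.9 and 12.5 FPKM in the control base, with the same low replicate 2 in the control vault as Hey1. Among the genes nearest to Notch2 were Ptpn14, a phosphatase, and Nod1, a sensor of bacterial cell walls, at 0.138 and 0.139. Nearest to Jag1 were Rai1, Hars2 and Acin1, at 0.107, 0.115 and 0.115, closer than the neighbors named for Hey1 and Notch2. The points share libraries and, for Jag1 and Notch2, the length slopes given above, so these distances are descriptions.

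By GENCODE M21 on GRCm38, the build of the annotation used here and not stated for the deposited values, the receptor genes lie at chr2:26457903-26516663 (Notch1, minus strand), chr3:98013527-98150361 (Notch2, plus), chr17:32120820-32166852 (Notch3, minus) and chr17:34564268-34588503 (Notch4, plus). The ligand genes lie at chr2:137081456-137116644 (Jag1, minus), chr12:112907819-112929776 (Jag2, minus), chr17:15367354-15376872 (Dll1, minus) and chr2:119325784-119335962 (Dll4, plus). Hes1 lies at chr16:30064384-30067796 (plus) and Hey1 at chr3:8663359-8667256 (minus). The table gives 1 value per gene, so isoforms were not distinguished. Other annotated genes overlap all members except Jag1, Hes1 and Hey1. Overlaps on the same strand were found for Notch1, Notch2 and Jag2, and reads from overlapping parts could have been divided between the genes. The kit kept the strand, but whether the counting used it is not stated.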

How the data were processed

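RNAseq libraries were prepared by the authors from combined RNA with a stranded mRNA kit, sequenced as single-end reads, mapped with gSNAP and quantified with Cufflinks, and the values they deposited are FPKM per Ensembl gene. For genome build, annotation release and program versions the sources used here give nothing. From the table of 43611 rows, 63 rows with an identifier already seen were summed with the first, and 9 genes with the placeholder 999999999 in 17 cells were left out. Levels were put on the scale log2(FPKM + 1), which understates fold changes of low genes. Genes averaging at least 0.5 FPKM, 18714 in all, entered a limma fit (version 3.58.1, R 4.3.3) using eBayes with trend and a mean for each group, with the 9 libraries in 1 fit. The tests were two-sided, and calls required both p under 0.05 before adjustment and p under 0.1 after Benjamini-Hochberg adjustment over every gene tested. The procedure was tested on simulated data. Symbols and exon lengths came from GENCODE M21 and matched 42375 of 43548 identifiers, and promoters came from RefSeq. Tables and plots were made with Python 3.11.15, pandas 2.3.3, numpy 2.4.6 and matplotlib 3.10.9.

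The members, the list of other pathway genes and 12 lists of marker genes were chosen with earlier results of these data known. Genes were named by a rule: all members, the other pathway genes called in any comparison or with the 2 highest or 2 lowest log2 differences in one, and, for the 3 members of largest variance, the 3 genes of most similar pattern, of which 1 is not reported here. Marker genes were named beside a member. Alternatives were other pseudocounts, filters, scalings and thresholds, the highest row of repeated identifiers, a fit to the 6 libraries compared, the replicate number as a block, a linear model without moderation, each library left out in turn, and the exon length slope, which was chosen after seeing the data. Read depth is unknown, so no counting interval is given.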

Additional observations from a re-analysis of the deposited data

How the results depend on the processing

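Of 630 recomputed log2 differences of the members, 596 kept their direction and side of the threshold. Directions that turned were all of differences not called. Against the control base they were Notch1, -0.023 as reported, at 0.069 (quantile normalization), 0.175 (common sum), 0.078 (common median) and -0.324 to 0.221 with each library left out; Notch4, -0.025, at 0.174, 0.157, 0.067 and -0.116 to 0.104 in the same order; Hes1, -0.21, at 0.003 (common sum) and 0.058 (length slope); and Jag1 at -0.070 (length slope). Between control base and control vault Notch3 gave -0.046 (common median), and with libraries left out Notch3 ranged from -0.091 to 0.250, Jag1 from -0.189 to 0.510 and Hes1 from -0.311 to 0.146. Between the vault groups Dll1 ranged from -0.109 to 0.358 and Dll4 from -0.086 to 0.161. The cause was not tested.

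Members called against the control base numbered 1 at an adjusted p under 0.05, with a common sum, in the 6 libraries alone, with the replicate block and without moderation, and 0 to 2 with each library left out. An unadjusted p alone gave 2 between the vault groups and 1 between the normal tissues, where leaving libraries out gave 0 to 2. Other pathway genes called between the vault groups were 2 by unadjusted p and 0 to 1 with libraries left out. Against the control base they were 1 (adjusted p under 0.05, 6 libraries, block, no moderation), 6 (unadjusted p) and 0 to 9 (libraries left out). Between the normal tissues they were 4 by unadjusted p, 0 to 1 with libraries left out, and 0 at an adjusted p under 0.05, at pseudocounts of 0.1 and 0.01, without a filter, at a mean FPKM of at least 5, after quantile normalization or a common sum, in the 6 libraries, with the block and without moderation.

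Over all genes, calls between the vault groups were 113 as reported, 35 (adjusted p under 0.05), 1186 (unadjusted p), 191 and 192 (pseudocounts of 0.1 and 0.01), 66 (no filter), 71 (mean FPKM of at least 5), 174 (6 libraries), 19 (replicate block), 0 (no moderation) and 11 to 273 (libraries left out). Against the control base the 1571 became 941 (adjusted p under 0.05), 3675 (unadjusted p), 834 (mean FPKM of at least 5), 875 (6 libraries), 918 (block), 869 (no moderation) and 587 to 4561 (libraries left out, the most without control base replicate 2). Between the normal tissues the 573 became 255, 2396, 291, 108, 234 and 257 in the same order, 1388 with the length slope and 130 to 1335 with libraries left out. Deviations from the group means of libraries with the same replicate number correlated between -0.549 and 0.37. With 3 libraries a group such correlations cannot decide whether libraries shared embryos or processing. The block ended the call of Notch2 (adjusted p = 0.119) and kept that of Hey1 (adjusted p = 0.0706). Groups of 3 and an unknown depth limit what could be detected.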
